A study of Mus musculus with 12 samples.

Results

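The glucocorticoid-induced genes described here are Nr3c1, the gene of the glucocorticoid receptor, and 9 genes known to respond to dexamethasone in many cell types: Fkbp5, Tsc22d3, Per1, Zbtb16, Sgk1, Klf9, Dusp1, Errfi1 and Rasd1. Members were the rows whose gene name equals one of these names, 10 of the 39423 genes in the table. They were followed in 3T3-L1 cells, a mouse preadipocyte line, in 12 RNA-seq libraries, 3 for each of 4 groups. The cells were transfected transiently with a nontargeting siRNA (siCtrl) or an siRNA against Prmt1 (siPRMT1), which encodes an arginine methyltransferase. After confluence, both received DMI, the differentiation mixture of dexamethasone, 3-isobutyl-1-methylxanthine (IBMX) and insulin. RNA was taken after 24 h (day 1) or 72 h (day 3). The DMI medium was replaced after 3 days, so day 1 falls within the dexamethasone exposure and day 3 at its end. Whether the day 3 RNA was taken before that change is not given in the sources used here. No library without dexamethasone was analysed here, so the induction itself was not measured. The values describe how the genes stood after the hormone was added, with and without the knockdown. Which of the siRNAs against Prmt1 was used is not given in the sources used here.

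Dexamethasone is a synthetic glucocorticoid. It binds the glucocorticoid receptor, a nuclear receptor held in the cytoplasm by Hsp90 and its co-chaperones, and the bound receptor moves to the nucleus, binds DNA at glucocorticoid response elements and raises some genes while lowering others, among them many inflammatory genes. In preadipocytes the hormone is one of the signals that start differentiation, beside cAMP, which IBMX raises by blocking phosphodiesterases, and insulin. Several of the 10 genes, Per1, Dusp1 and Sgk1 among them, also answer to cAMP or serum.

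Each library held between 15116462 and 42357137 counts. Prmt1 itself was listed at 82.9 to 91.3 FPKM (fragments scaled by gene length and library size) in the siCtrl libraries and 38.6 to 43.8 in the siPRMT1 libraries of day 1, and at 110.6 to 140.3 and 62.0 to 71.7 at day 3. It was lower in each siPRMT1 library than in each siCtrl library of its day, with mRNA remaining. One library stood apart: siCtrl day 1 replicate 3 differed from its 2 partners by a chi-square per gene of 30.8 and 50.6, where the other 10 replicate pairs ranged from 4.14 to 15.8. The summed FPKM of 6 adipocyte markers (Pparg, Cebpa, Fabp4, Adipoq, Plin1, Lpl) was 143.7 to 149.0 in siCtrl and 109.0 to 122.7 in siPRMT1 at day 1, and 2068 to 2239 and 1627 to 1843 at day 3. The sum of 5 fibroblast markers (Pdgfra, Pdgfrb, Col1a1, Col3a1, Thy1) was 876.9 to 970.6 and 857.9 to 915.2 at day 1, then 438.3 to 469.6 and 524.8 to 598.3 at day 3. No adipocyte or fibroblast marker was at 0 in a whole group. Immune, endothelial, epithelial and muscle markers summed, list by list, to at most 6.53 FPKM in any library. The adipocyte sums therefore differed with both time and siRNA, while the fibroblast sums of the 2 siRNAs overlapped at day 1. The part of differentiation in the values of the 10 genes was not tested. In such bulk samples, fewer cells expressing a gene and less of its RNA per cell cannot be told apart. Nothing states that replicates came from separate cultures, so the p-values measure the spread between these samples, which may be technical.

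To show the DNA in front of the members that were higher in siPRMT1 at day 1, the 250 bases before RefSeq transcript starts (GRCm38.p6) were read, 5′ to 3′ on the gene's strand. Windows were given for 7 of the 10 members, 16 windows in all, and not for Nr3c1, Zbtb16 and Rasd1. Capitals mark a match, on either strand, to the glucocorticoid response element written as AGAACA and TGTTCT 3 bases apart, its single arm TGTTCT, the cAMP response element TGACGTCA, its shorter form TGACG, or the E-box CACGTG. The full element contains the single arm and TGACGTCA contains TGACG, so those matches overlap. Sgk1 is shown for the full glucocorticoid element, Dusp1 for the full cAMP element, and Per1 at both of its windows for the shorter cAMP form. These windows were picked for their matches. The other Sgk1 windows and that of Klf9, with TGACG 46 bases before the start, are not shown. TGACG also stood before Tsc22d3 and Errfi1, which were not higher. Both Per1 windows lie inside the Per1 row, which begins at 69095138, and no window was given for that outermost start. Which starts were in use in these cells was not measured.
Sgk1, window 5 of 6, chr10:21993640-21993889, plus strand: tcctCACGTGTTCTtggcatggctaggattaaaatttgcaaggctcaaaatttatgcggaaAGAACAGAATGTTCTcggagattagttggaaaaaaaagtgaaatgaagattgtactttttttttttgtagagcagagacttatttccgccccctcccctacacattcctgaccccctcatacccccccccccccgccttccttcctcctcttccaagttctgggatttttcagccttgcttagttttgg
Dusp1, chr17:26508473-26508722, minus strand: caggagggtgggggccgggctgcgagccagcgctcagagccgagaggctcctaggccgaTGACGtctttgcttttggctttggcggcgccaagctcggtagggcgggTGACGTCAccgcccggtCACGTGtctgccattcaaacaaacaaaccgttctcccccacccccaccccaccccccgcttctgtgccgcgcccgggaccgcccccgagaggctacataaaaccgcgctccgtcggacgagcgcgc
Per1, first window, chr11:69098699-69098948, plus strand: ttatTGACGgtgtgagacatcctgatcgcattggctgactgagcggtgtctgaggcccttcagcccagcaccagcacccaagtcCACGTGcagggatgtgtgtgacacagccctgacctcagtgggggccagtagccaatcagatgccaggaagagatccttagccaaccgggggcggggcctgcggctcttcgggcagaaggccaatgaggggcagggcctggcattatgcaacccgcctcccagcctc
Per1, second window, chr11:69099902-69100151, plus strand: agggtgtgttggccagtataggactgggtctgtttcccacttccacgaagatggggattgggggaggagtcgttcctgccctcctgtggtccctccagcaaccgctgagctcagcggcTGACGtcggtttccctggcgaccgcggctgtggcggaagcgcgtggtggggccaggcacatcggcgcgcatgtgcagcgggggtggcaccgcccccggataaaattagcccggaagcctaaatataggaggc

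The full glucocorticoid element was found in 1 of the 16 member windows, that of Sgk1, 189 bases before the start, and in 3 of all 32817 windows (0.00914%). Distances count from the start to the leftmost base of a match. The same Sgk1 window held a further single arm at 242 bases, which overlapped an E-box. The single arm was found in 4 of the 16 windows and in 16.1% of all windows. Those 4 were window 2 of Tsc22d3 and windows 1, 4 and 5 of Sgk1. Sgk1 gave 6 of the 16 windows, so the counts are by window and not by gene. TGACGTCA was found in 2 of the 16, those of Dusp1 and Errfi1, and in 1.55% of all windows, at 143 bases before the Dusp1 start. TGACG stood in 7 of the 16 windows and 17.7% of all, and CACGTG in 4 of the 16 and 6.02% of all, among them the Dusp1 window at 126 bases and the first Per1 window at 166 bases. A match describes letters in a short window and says nothing of whether a factor binds it.

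Across conditions the members spanned a wide range of levels. Per gene length, Tsc22d3, which encodes the leucine zipper protein GILZ, was the highest in each of the 4 groups, at 65.4 ± 4.31 FPKM (SD, n = 3) in siCtrl day 1. It was followed there by Dusp1 and Sgk1, whose FPKM ranges overlapped, then by Klf9 and by Per1, Nr3c1 and Fkbp5, of which neighbours overlapped, then Zbtb16 at 7.23 ± 0.638 and Rasd1 at 1.33 ± 0.531. At day 3 in siCtrl, Tsc22d3 at 30.3 ± 1.98 and Klf9 at 25.4 ± 2.90 led, the neighbours from Per1 down to Fkbp5 overlapped, and Dusp1 had moved down to eighth place. The FPKM listed for Errfi1 was 0.05 or less in each library, with nearly all counts of the gene on another row that is described further on.

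**Figure D1:**
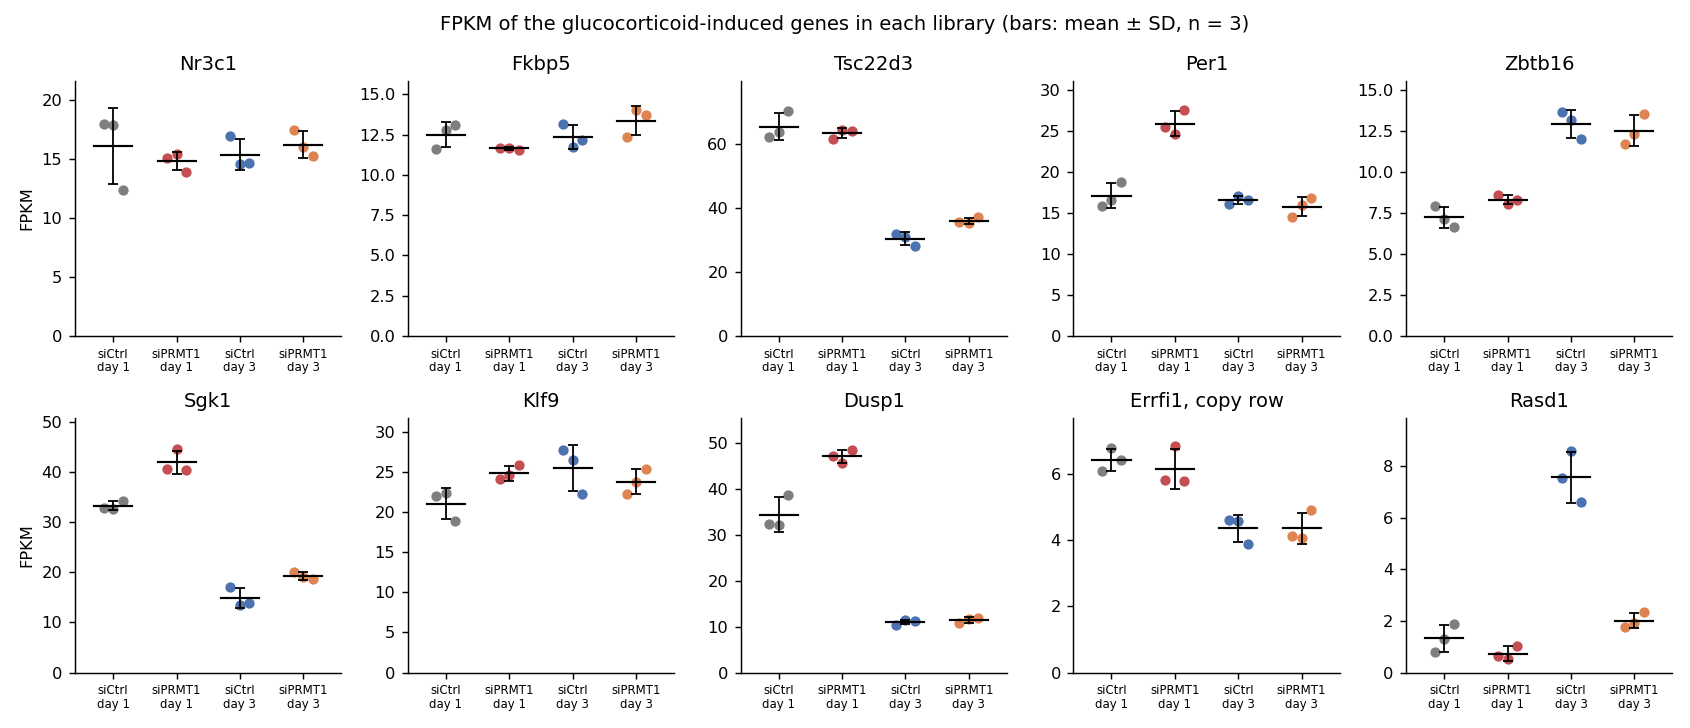
FPKM (vertical axis, linear from 0) of each member in the 12 libraries, with points for libraries and black bars for the mean ± SD of 3. Per1, Sgk1 and Dusp1 sit higher in siPRMT1 than siCtrl at day 1, Rasd1 sits lower in siPRMT1 at day 3, and Errfi1 is shown by its row on an alternate scaffold.

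At day 1, the question was whether depletion of PRMT1 altered genes under dexamethasone. Of the 9 members that passed the filter on low counts, 1 was called, Per1, where a call in edgeR's quasi-likelihood test over 13689 genes needs a log2 fold change beyond 0.5 in either direction and an adjusted p under 0.05. That is 11.1% of the members tested, against 3.56% of all genes tested. The 3 siPRMT1 libraries lay wholly above the 3 siCtrl libraries in counts scaled by library size (CPM) for 5 members (Per1, Dusp1, Sgk1, Klf9 and Zbtb16) and wholly below for none, and 32.2% of all genes tested were apart in either direction. The median log2 fold change of the 9 was 0.15, beside 0.01 over all genes.

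Per1 (chr11:69095138-69109965, plus strand) encodes a repressor of the circadian clock. Its FPKM was 15.86, 16.56 and 18.76 in the siCtrl libraries of day 1 and 25.41, 24.62 and 27.57 in the siPRMT1 libraries. The groups did not overlap. Per1 rose by a log2 fold change of 0.55 (SE 0.0792; 1.47-fold), with an adjusted p of 0.00785 in edgeR. The call rested on few libraries: without siCtrl replicate 2, siPRMT1 replicate 1 or siPRMT1 replicate 3 it was lost, at adjusted p-values of 0.0537, 0.0511 and 0.0617 and log2 fold changes of 0.53, 0.54 and 0.50, whereas without the siCtrl library that stood apart it was 0.62 with an adjusted p of 2.47e-05.

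Dusp1 (chr17:26505591-26508472, minus strand) encodes a phosphatase that inactivates MAP kinases. The siCtrl libraries of day 1 held 32.26, 32.09 and 38.67 FPKM and the siPRMT1 libraries 47.01, 45.60 and 48.47. The groups were apart, with the highest siCtrl value in the library that stood apart. The log2 difference was 0.40 (SE 0.0847, edgeR adjusted p = 0.0269), past the p threshold and short of the fold threshold, and 0.49 (adjusted p = 9.37e-05) without that library. Without any 1 of the other 5 libraries the adjusted p was 0.0827 to 0.126, so the p threshold was passed in 1 of the 6 fits with a library left out.

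Sgk1 (chr10:21882184-21999903, plus strand) encodes a kinase of ion transport and survival pathways. It was listed at 32.88, 32.58 and 34.25 FPKM in siCtrl and 40.65, 44.60 and 40.48 in siPRMT1 at day 1. All siPRMT1 libraries were above all siCtrl libraries. The log2 difference of 0.29 (SE 0.0675, edgeR adjusted p = 0.0403) again passed the p threshold alone, and it too passed only without siCtrl replicate 3 among the 6 fits with a library left out, with an adjusted p of up to 0.172 in the others.

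The remaining members at day 1 did not pass either threshold in edgeR, with the exception that Rasd1 differed by more than 0.5. Rasd1, which encodes a small Ras-related GTPase named for its induction by dexamethasone, was at 0.81, 1.30 and 1.87 FPKM in siCtrl and 0.66, 0.51 and 1.05 in siPRMT1. These groups overlapped and rested on 22 to 64 counts per library, and the log2 difference was -0.84 (SE 0.364, adjusted p = 0.201), ranging from -0.51 without siCtrl replicate 3 to -1.18 without siPRMT1 replicate 3. Klf9, a Krüppel-like transcription factor, differed by 0.19 (SE 0.0863, adjusted p = 0.225), and Zbtb16, the zinc finger factor PLZF, by 0.15 (SE 0.0863, adjusted p = 0.346). The receptor gene Nr3c1 differed by -0.17 (SE 0.142, adjusted p = 0.505), Fkbp5, a co-chaperone that lowers the receptor's affinity for hormone, by -0.15 (SE 0.0742, adjusted p = 0.252), and Tsc22d3 by -0.09 (SE 0.0643, adjusted p = 0.412). Nr3c1 was at 17.99, 17.92 and 12.40 FPKM in siCtrl, the last being the library that stood apart, and without that library its log2 difference was -0.33 with an adjusted p of 0.00139. A p above the threshold does not show that a gene was equal in both groups.

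**Figure D2:**
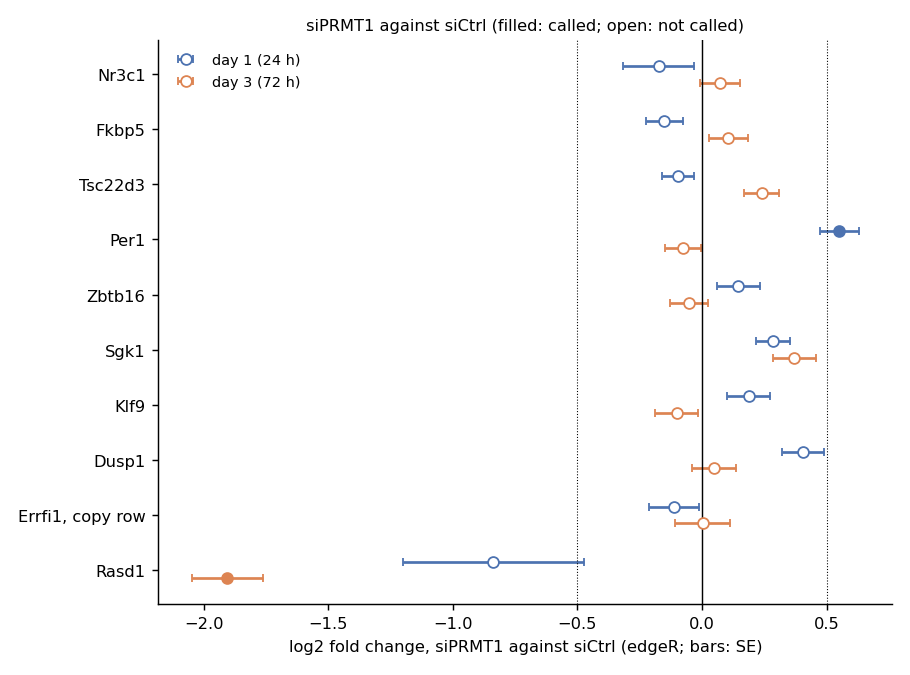
Log2 fold change of siPRMT1 against siCtrl (horizontal axis, edgeR, bars for the SE) for each member at day 1 and day 3. Filled points were called, dotted lines mark the fold threshold of 0.5, and Per1 at day 1 (0.55) and Rasd1 at day 3 (-1.91) are the filled points.

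At day 3, 1 of the 9 members tested was called, Rasd1, against 6.65% of the 14039 genes tested. The groups were apart for 3 members, Sgk1 and Tsc22d3 upward and Rasd1 downward, which is 33.3% of the members beside 34.8% of all genes. The median log2 fold change was 0.05, against 0.01 over all genes.

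Rasd1 (chr11:59963181-59964944, minus strand) was at 7.54, 8.58 and 6.60 FPKM in the siCtrl libraries of day 3 and at 1.76, 1.93 and 2.34 in the siPRMT1 libraries, from 209 to 254 and 61 to 93 counts. The lowest control value was well above the highest knockdown value. Rasd1 fell by 1.91 on the log2 scale (SE 0.143, edgeR adjusted p = 1.01e-06), to 0.267 of the siCtrl level. With each library left out in turn the log2 fold change ran from -2.04 to -1.80, and the call remained each time.

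Sgk1 was at 17.10, 13.38 and 13.97 FPKM in siCtrl and 20.08, 18.99 and 18.65 in siPRMT1 at day 3. As on day 1, the knockdown libraries were higher without overlap. The log2 difference was 0.37 (SE 0.0860, adjusted p = 0.00832 in edgeR), under the fold threshold. Tsc22d3 (chrX:140539528-140600522, minus strand) was at 31.89, 31.02 and 28.11 FPKM in siCtrl and 35.55, 35.19 and 37.08 in siPRMT1. Its groups were apart as well, by 0.24 on the log2 scale (SE 0.0708, adjusted p = 0.0309 in edgeR, and up to 0.119 with a library left out). The other 6 members tested had adjusted p-values of 0.380 or more, with log2 differences between -0.10 for Klf9 and 0.11 for Fkbp5, and Per1 stood at 16.07, 16.99 and 16.61 FPKM in siCtrl and 14.54, 15.96 and 16.77 in siPRMT1. For Per1, the libraries of both groups thus overlapped at day 3 (log2 difference -0.08, SE 0.0722).

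Whether the effect of the siRNA differed between the days was tested by the interaction term over all 12 libraries. Per1 was called, 1 of 9 members against 8.24% of 14612 genes: its siPRMT1 effect was 0.61 lower on the log2 scale at day 3 than at day 1 (SE 0.113, edgeR adjusted p = 0.00321), and the call remained without each library in turn, at -0.71 to -0.55. Tsc22d3 had an interaction of 0.35 (SE 0.0980, adjusted p = 0.0291, and up to 0.0790 with a library left out), under the fold threshold. For Dusp1 it was -0.34 (SE 0.124, adjusted p = 0.0933) and for Rasd1 -1.07 (SE 0.397, adjusted p = 0.0943), so that a difference between days in the Rasd1 effect was not established. The Rasd1 interaction depended on the library left out: it was -1.43 without siCtrl day 1 replicate 3 (edgeR adjusted p = 0.00638), -0.73 without siCtrl day 1 replicate 1 (adjusted p = 0.197) and -0.74 without siPRMT1 day 1 replicate 3 (adjusted p = 0.339). Sgk1, with 0.11 (SE 0.118, adjusted p = 0.610), showed no detectable difference between the days.

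The days were also compared within each siRNA. The 2 comparisons over time and the 2 over siRNA share libraries, so their values are given side by side and are not independent. In siCtrl, 5 of the 9 members were called, 2 higher and 3 lower at day 3, beside 43.2% of 13829 genes. In siPRMT1, 6 of 9 were called, 2 higher and 4 lower, beside 36.5% of 14224 genes. The same 5 genes were called in both, and Per1 was the sixth in siPRMT1.

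Among the genes that were lower at day 3, Dusp1 moved most. It went from 34.3 ± 3.75 to 11.0 ± 0.518 FPKM in siCtrl, a log2 fold change of -1.71 (SE 0.111, adjusted p = 8.48e-07 in edgeR), and from 47.0 ± 1.44 to 11.4 ± 0.570 FPKM in siPRMT1, a log2 fold change of -2.05 (SE 0.0656, adjusted p = 1.08e-11). Libraries of the 2 days were far apart under either siRNA. Sgk1 fell by 1.24 on the log2 scale (SE 0.102, edgeR adjusted p = 4.21e-06) in siCtrl and by 1.14 (SE 0.0646, adjusted p = 3.08e-09) in siPRMT1. Tsc22d3 fell by 1.18 (SE 0.0875, edgeR adjusted p = 2.11e-06) in siCtrl and by 0.83 (SE 0.0546, adjusted p = 1.37e-08) in siPRMT1. Per1 fell by 0.73 (SE 0.0649, edgeR adjusted p = 3.16e-07) in siPRMT1, and its difference in siCtrl was -0.11 (SE 0.0909, adjusted p = 0.308). In FPKM, Per1 thus stood at 25.9 ± 1.53 in siPRMT1 day 1 and between 15.8 and 17.1 on average in the other 3 groups.

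Among the genes that were higher at day 3, Rasd1 increased by 2.50 on the log2 scale in siCtrl (SE 0.259, edgeR adjusted p = 2.10e-05), from 1.33 ± 0.531 to 7.57 ± 0.990 FPKM. In siPRMT1 it increased by 1.44 (SE 0.225, adjusted p = 7.62e-05 in edgeR), from 0.740 ± 0.279 to 2.01 ± 0.298 FPKM. All day 3 libraries were above all day 1 libraries of the same siRNA. Zbtb16 (chr9:48651797-48836381, minus strand) was at 7.92, 7.12 and 6.66 FPKM at day 1 and 13.61, 13.14 and 11.97 at day 3 in siCtrl, and at 8.60, 8.04 and 8.26 and then 11.69, 12.28 and 13.54 in siPRMT1. It rose by 0.76 (SE 0.0955, edgeR adjusted p = 7.75e-05) and 0.58 (SE 0.0665, adjusted p = 4.13e-06), respectively. Nr3c1, Fkbp5 and Klf9 were not called between days under either siRNA, with log2 differences from -0.14 to 0.20. The largest of these relative to its error was Fkbp5 in siPRMT1, at 0.19 (SE 0.0665, adjusted p = 0.0256 in edgeR), under the fold threshold.

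**Figure D3:**
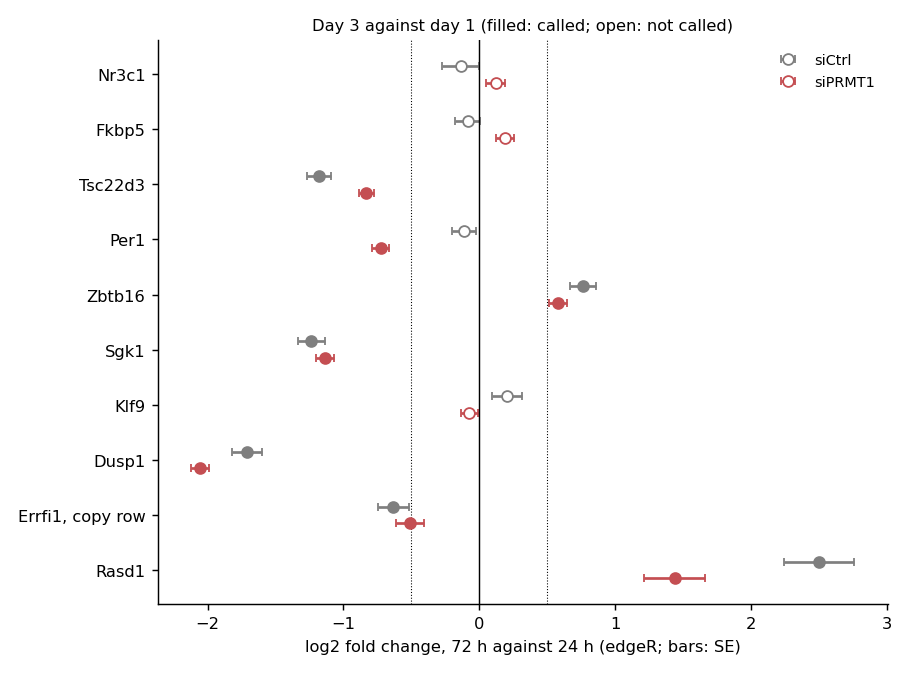
Log2 fold change of day 3 against day 1 (horizontal axis, edgeR, bars for the SE) for each member in siCtrl and siPRMT1. Dusp1, Sgk1, Tsc22d3 and the scaffold row of Errfi1 lie left of -0.5 and Rasd1 and Zbtb16 right of 0.5 under both siRNAs. Per1 lies left of -0.5 only in siPRMT1, and its interaction term was called.

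The counts of Errfi1 and Fkbp5 were split between rows, for a reason that was not tested. Each has a row on its chromosome and a further row, with a number added to the name, on an alternate scaffold. Errfi1, which encodes an inhibitor of EGF receptor signalling, held 0 to 4 counts per library on chromosome 4 (chr4:150853801-150868889, plus strand) and was not tested. Its row on the alternate scaffold held 209 to 779 counts, so that 99.7% of the 4747 counts of both rows lay there. On that row the FPKM was 6.42 ± 0.335 and 6.14 ± 0.604 in siCtrl and siPRMT1 at day 1 and 4.35 ± 0.407 and 4.36 ± 0.464 at day 3. Libraries of the 2 siRNAs overlapped on both days (log2 differences of -0.11 and 0.00, SE 0.101 and 0.111), and the level was lower at day 3 by 0.63 in siCtrl (SE 0.114, edgeR adjusted p = 0.000873) and by 0.51 in siPRMT1 (SE 0.103, adjusted p = 0.000646). The siPRMT1 call was lost in 3 of the 6 fits with a library left out and in 3 of 10 other alternatives. The siCtrl call was lost in 2 of those 10 alternatives.

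For Fkbp5 (chr17:28398753-28486149, minus strand), 15.8% of 16670 counts lay on the scaffold row, 13.9% to 17.3% by library. Fkbp5 was at 11.60, 12.79 and 13.10 FPKM in siCtrl and 11.68, 11.67 and 11.55 in siPRMT1 on day 1 by its chromosome row, with overlap. The scaffold row was lower in siPRMT1 on day 1, by -0.45 on the log2 scale (SE 0.108, edgeR adjusted p = 0.0421, under the fold threshold), at 2.41, 2.64 and 2.74 FPKM in siCtrl and 2.12, 1.91 and 1.86 in siPRMT1. Its interaction with time was 0.54 (SE 0.157, adjusted p = 0.0363 in edgeR), a call that the chromosome row, at 0.28 (SE 0.109, adjusted p = 0.112), did not give. With both rows summed, which was chosen after seeing the data, the day 1 difference of Fkbp5 was -0.22 with an adjusted p of 0.106.

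**Figure D4:**
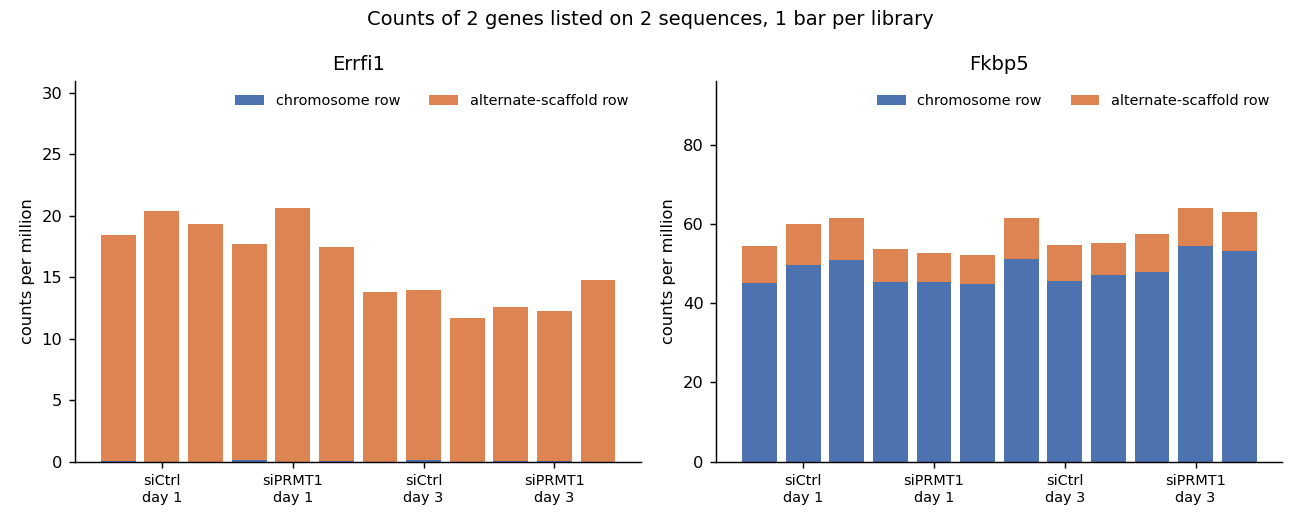
CPM (vertical axis, stacked from 0) on the chromosome row and the alternate-scaffold row of Errfi1 and Fkbp5, 1 bar for each of 12 libraries in 4 groups. Nearly all Errfi1 counts (99.7%) and 15.8% of the Fkbp5 counts stand on the scaffold row.

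Genes of the same response were described by lists. Like the members, the lists here and below were chosen with earlier results of these data known. Their counts beside the background are therefore a description and no test of enrichment. For each count, the background is the share of all genes tested that were called: 1.95% higher and 1.61% lower at day 1, and 2.84% higher and 3.80% lower at day 3. Of 29 further glucocorticoid-induced genes, 23 were tested at day 1 and 0 were called higher and 2 lower by edgeR (3 were higher and 8 lower at an unadjusted p under 0.05, and DESeq2 called 0 higher and 2 lower). Without the fold threshold the lower count was 6, and it was 3 when the chromosome and scaffold rows of each gene were summed, an alternative chosen after seeing the data. The median log2 fold change was -0.12, beside 0.01 over all genes. The 2 were Fam107a, an actin-associated gene, which fell by 1.26 (SE 0.132, adjusted p = 0.00302) from 14.0 ± 1.64 to 6.07 ± 0.963 FPKM, and the receptor tyrosine kinase gene Mertk, which fell by 0.61 (SE 0.108, adjusted p = 0.0172), both in edgeR. Their interaction with time was 1.69 and 1.04 (adjusted p = 3.99e-05 and 0.000128), and leaving out siCtrl replicate 2 or any 1 of the siPRMT1 libraries of day 1 left 1 gene of the list called. At day 3 the FPKM of Fam107a was 26.0 ± 3.49 in siCtrl and 34.7 ± 2.92 in siPRMT1.

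At day 3, 25 of the 29 were tested, 1 was called higher and 3 lower, and the median was again -0.12. Without the fold threshold these counts were 4 and 10, and with the rows of each gene summed 1 and 4. Klf15, a transcription factor of metabolism, fell by 1.27 (SE 0.114, edgeR adjusted p = 4.23e-06), from 2.91 ± 0.105 to 1.22 ± 0.153 FPKM. Lpin1, a phosphatidate phosphatase of triglyceride synthesis, fell by 0.63 (SE 0.0750, adjusted p = 4.21e-05 in edgeR), and Ddit4, an inhibitor of mTORC1, fell by 0.66 (SE 0.0801, adjusted p = 5.40e-05 in edgeR). Arl4d, a small GTPase, rose by 0.56 (SE 0.156, adjusted p = 0.0227 in edgeR), and 0 genes of the list were called higher without siCtrl replicate 2 or siPRMT1 replicate 2 and 2 without siCtrl replicate 3. Klf15 and Lpin1 also rose strongly from day 1 to day 3 in siCtrl, by 5.68 and 2.25 on the log2 scale, as the adipocyte markers did. Angptl4, a further member of that list, had 99.9% of its counts on a scaffold row.

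A list of 15 genes that glucocorticoids are known to repress held chemokines, cytokines and matrix proteases. Of these, 9 were tested at day 1, where 4 were called higher and 1 lower, beside 1.95% and 1.61% of all genes, and the median was 0.58. Il6 rose by 1.17 (SE 0.195, adjusted p = 0.0135 in edgeR), from 2.21 ± 0.461 to 5.25 ± 0.876 FPKM, and the chemokine gene Ccl7 rose by 0.58 (SE 0.0948, adjusted p = 0.0127 in edgeR), from 44.6 ± 4.36 to 68.9 ± 4.41 FPKM. Mmp3, which encodes stromelysin, fell by 1.25 (SE 0.194, adjusted p = 0.0108 in edgeR). These calls rested on few libraries: leaving out 1 library at a time left 0 to 4 called higher, 0 of them without siPRMT1 replicate 2 or replicate 3, 1 without siCtrl replicate 2 or siPRMT1 replicate 1, and 2 without siCtrl replicate 1. The lower call of Mmp3 was lost without siPRMT1 replicate 1 or replicate 3. The other settings gave 1 to 5 called higher, 1 of them with limma on FPKM and no filter.

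At day 3, 8 of the 15 were tested and 4 were called higher and 0 lower by edgeR, beside 2.84% and 3.80% of all genes, with a median of 0.57 (0 were lower at an unadjusted p under 0.05, and DESeq2 called 3 higher and 0 lower). Ccl2, a monocyte chemokine gene, rose by 1.25 (SE 0.125, edgeR adjusted p = 1.22e-05), from 8.19 ± 1.55 to 19.9 ± 1.30 FPKM. Ccl7 rose by 0.67 (SE 0.111, adjusted p = 0.000768 in edgeR) and Mmp3 by 0.81 (SE 0.162, adjusted p = 0.00303 in edgeR). Leaving out each library gave 3 or 4 called higher, and the other settings gave 2 to 4. Mmp3 had an interaction of 2.08 (SE 0.265, edgeR adjusted p = 0.000169), lower in siPRMT1 at day 1 and higher at day 3. Over time, 7 of 10 of the list were called lower and 1 higher in siCtrl, beside 20.4% and 22.7% of all genes, with a median of -1.64. In siPRMT1 these counts were 8 and 2 of 10, beside 17.4% and 19.0% of all genes, with a median of -1.69. Many of these genes are also targets of NF-kB and of interferon-related signals, and the share of glucocorticoid signalling in their change was not tested.

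**Figure D5:**
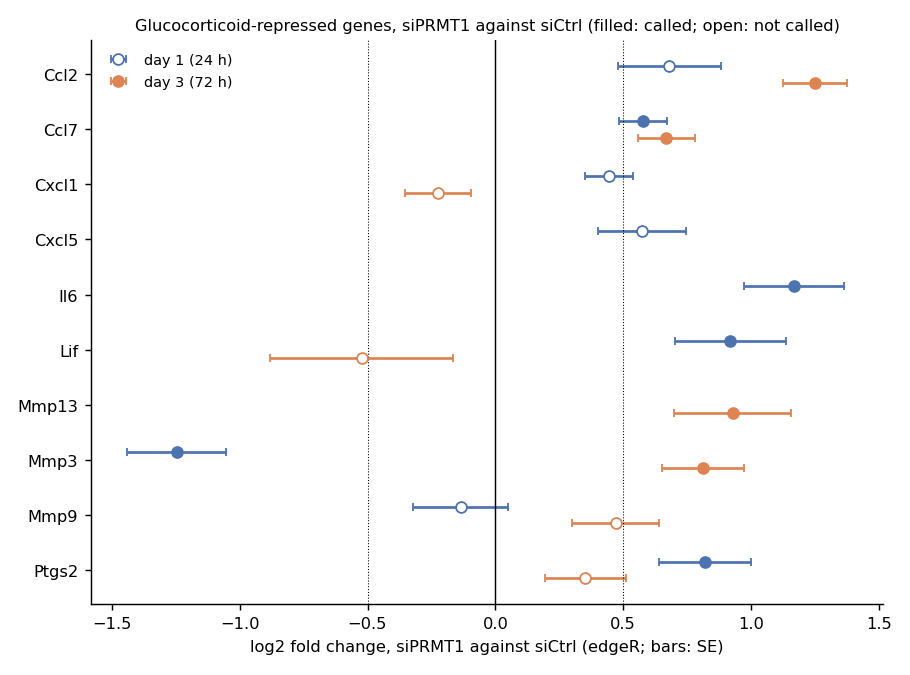
Log2 fold change of siPRMT1 against siCtrl (horizontal axis, edgeR, bars for the SE) for the 10 genes of the glucocorticoid-repressed list tested at either day. Filled points were called: 4 higher and 1 lower (Mmp3) at day 1, and 4 higher at day 3. Cxcl5 is shown by the row without a number added to its name, while 71.7% of its counts lay on the numbered row.

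The next list held the receptor's chaperones, coregulators and hormone-converting enzymes. At day 1, 0 of its 21 tested genes were called by edgeR (2 were higher and 2 lower at an unadjusted p under 0.05, and DESeq2 called 0), beside 3.56% of all genes, and 1 of 22 was called at day 3, beside 6.65% of all genes. That gene was Hsd11b1, whose product regenerates active glucocorticoid from its inert form. It fell by 0.62 (SE 0.0736, edgeR adjusted p = 4.09e-05), from 55.8 ± 3.40 to 36.4 ± 1.70 FPKM. Hsd11b1 was also higher at day 3 than at day 1 by 3.21 in siCtrl and 2.77 in siPRMT1. Dexamethasone itself does not need that enzyme to be active.

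Among 16 relatives of the members, 1 of 13 tested was called higher at day 1 (1.95% of all genes) and 1 of 14 lower at day 3 (3.80% of all genes), and it was the same gene, Dusp4, a nuclear phosphatase of the family of Dusp1. Dusp4 rose by 0.83 at day 1 (SE 0.143, edgeR adjusted p = 0.0154), from 1.46 ± 0.0361 to 2.70 ± 0.413 FPKM, and fell by 0.77 at day 3 (SE 0.0783, edgeR adjusted p = 1.28e-05), from 22.9 ± 0.699 to 13.5 ± 0.686 FPKM. The day 1 call was lost without siCtrl replicate 2, siPRMT1 replicate 2 or siPRMT1 replicate 3, where 0 genes of the list were called higher. While Dusp1 fell between the days, Dusp4 was higher at day 3, by 3.90 in siCtrl and 2.30 in siPRMT1.

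Since Dusp1, Per1 and Sgk1 also respond to growth signals and cAMP, other genes of those kinds were set beside them, with 1.95% of all genes called higher at day 1 and 2.84% at day 3. Of the 11 immediate-early genes, 10 were tested at each day, 1 was called higher at day 1 (Atf3, 1.19, SE 0.246, edgeR adjusted p = 0.0259) and 0 at day 3 (by edgeR 1 was lower at an unadjusted p under 0.05, DESeq2 called 0, and 1 was called lower with the rows of each gene summed). Atf3 was low at day 1, at 0.467 ± 0.104 FPKM in siCtrl and 1.14 ± 0.246 in siPRMT1. It was no longer called without siCtrl replicate 2 or any 1 of the siPRMT1 libraries of day 1. Of the 9 cAMP-responsive genes, 0 of 9 tested were called by edgeR at day 1 (2 were higher and 1 lower at an unadjusted p under 0.05, and DESeq2 called 0), and 2 of 8 were called higher at day 3: Gem, a Ras-related GTPase, by 0.68 (SE 0.0972, edgeR adjusted p = 0.000217), and the coactivator gene Ppargc1a by 0.55 (SE 0.135, edgeR adjusted p = 0.0117), and 1 gene was called without siCtrl replicate 3. Ppargc1a was low at day 3, at 0.410 ± 0.0656 FPKM in siCtrl and 0.603 ± 0.0289 in siPRMT1. The summed FPKM of the 11 immediate-early genes was 232.4 to 300.4 in siCtrl and 285.4 to 333.2 in siPRMT1 at day 1. At day 3 it was 131.8 to 144.4 and 125.5 to 144.4. That of the 9 was 250.9 to 255.0 and 249.4 to 261.8, then 88.9 to 94.6 and 93.8 to 95.9. Both sums were lower at day 3 than at day 1 under both siRNAs, as were Dusp1, Sgk1 and Tsc22d3. Per1 was lower at day 3 in siPRMT1, while in siCtrl its log2 difference was -0.11 (edgeR adjusted p = 0.308). The sums hide genes that moved the other way. In siCtrl, 7 of the 10 immediate-early genes tested were lower at day 3 and 3 higher, whether called or not. Atf3 was among the higher ones, from 0.467 ± 0.104 to 2.46 ± 0.693 FPKM. The part of cAMP and serum signals was not tested.

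For the members called by knockdown, the genes with the most similar pattern over the 12 libraries were listed by Pearson's r of log2 CPM among 12454 genes, as a description with no test. Per1 was most like Arhgef2 (r = 0.97), Mapk8ip3 (0.97) and Eif2b2 (0.97), and the genes most like Rasd1 included Tkt (0.98) and Zbtb5 (0.98). All points of each correlation share the same libraries and the same 4 groups, so the values mostly describe the group differences above.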

How the data were processed

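RNA was sequenced in 12 libraries of 3T3-L1 cells, 3 for each siRNA and time. The authors filtered reads with cutadapt (version 1.11) and mapped them with HISAT2 (version 2.1.0), and RSEM (version 1.2.6) and mm10 are also named in the submitters' processing notes. The counting tool and its strand setting are not given in the sources used here, so reads of overlapping antisense genes cannot be told apart. The authors deposited raw counts per gene, whole numbers with no normalization, and FPKM, which scale the counts by gene length and library size. Depth ran from 15116462 to 42357137 counts per library, and counting error is only part of the spread. The 2266 rows with a number added to the gene name were kept as separate genes. Of the lists, Ier3, Per3 and Cxcl5 also had most of their counts on such rows, at 83.6%, 77.0% and 71.7%.

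Counts were tested with edgeR (version 4.0.16, R 4.3.3) by the quasi-likelihood test with TMM normalization and filterByExpr on the whole table, and p-values were adjusted by Benjamini-Hochberg over all genes tested. Each day, each siRNA and the interaction over 12 libraries were fitted separately. Standard errors were taken from the fold change and its F statistic (size of the log2 value over the root of F). FPKM levels are printed as mean ± SD and were tested only as an alternative. Alternatives were DESeq2 (version 1.42.0), RLE normalization, no filter, a minimum of 10 counts in each library, a replicate block, a joint model of the 12 libraries, no fold threshold, limma (version 3.58.1) on log2(FPKM + 1) for mean FPKM of 1 or more, a pseudocount of 0.1, no FPKM filter, and leaving out each library. Summing rows of one gene was added after seeing the data. The methods were tested on simulated data with larger fold changes than most knockdown differences given here and no outlying library. Small changes were therefore not covered. Named genes were the 10 members, the 3 called genes with the smallest p of each list at each day, and the 3 genes most correlated with each member called by knockdown in log2 CPM (prior count 2, mean of 1 CPM or more). Of these, 1 is not reported here. Arl4d was named outside this rule, as the only gene of its list called higher at day 3. Angptl4, Cxcl5, Ier3 and Per3 were named after their values were seen. The members and lists were chosen with earlier results of these data known. Promoter windows are RefSeq's, and the motifs were searched by exact letters.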

Additional observations from a re-analysis of the deposited data

Results flagged for a closer look

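The siPRMT1 effect on Per1 differed between the days by the interaction term of the edgeR model over all 12 libraries: the effect at day 3 minus that at day 1 was -0.61 on the log2 scale (SE 0.113, adjusted p = 0.00321). The siPRMT1 libraries lay above siCtrl in 3 of 3 libraries at day 1, while the groups overlapped at day 3.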

How the results depend on the processing

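The counts of called members over time, 5 in siCtrl and 6 in siPRMT1, stayed within 1.5 times under the alternatives run. Without a fold threshold, 3 members passed at day 1 in place of 1, 3 at day 3 in place of 1, and 2 for the interaction in place of 1. The interaction count was also 2 with no filter on low counts, with limma on log2(FPKM + 1), and with limma and no filter, and in each the added gene was Rasd1 (adjusted p = 0.00462 by edgeR, then 0.00881 and 0.0318 by limma). Leaving out 1 library at a time gave 0 to 1 member at day 1 and 1 to 2 for the interaction. The sign at day 3 turned for values near 0: Dusp1 ran from -0.00603 to 0.0807 over the libraries left out, and the scaffold row of Errfi1 (Errfi1_1; 0.00321) was -0.00890 with all 12 libraries in 1 model and ran from -0.0970 to 0.0610 over the libraries left out, with -0.0788 without siCtrl replicate 3 and -0.0970 without siPRMT1 replicate 3. The cause was not tested. Replicate numbers are shared across groups. The correlations of same-numbered libraries were not all above 0.1 in any comparison (-0.05, 0.23 and 0.31 between the siRNAs at day 1). With 3 libraries per group, such values cannot decide whether same-numbered libraries were paired. With the replicate block, Per1 at day 1 was 0.55 (edgeR adjusted p = 0.00432), Rasd1 at day 3 was -1.91, and the counts of members were 1, 1, 5, 6 and 1, as without it. At day 1 the adjusted p of Dusp1 reached 0.0641 and that of Sgk1 0.0573 over the alternatives that kept all libraries, and at day 3 that of Sgk1 reached 0.0979. Low counts limit the chromosome row of Errfi1, with 0 to 4 counts per library and no test, and Rasd1 at day 1, with 22 to 64 counts.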
